A study of Arabidopsis thaliana with 6 samples.

Results

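The protein disulfide isomerases and their oxidase ERO1 were examined as a set of 10 Arabidopsis loci, namely PDIL1-1 to PDIL1-6, PDIL2-1 to PDIL2-3 and ERO1, a family of which PDIL1 and PDIL2 are the branches with several thioredoxin-type domains. They were chosen by locus and not by their values, and each of the 10 was read by 1 probe set of its own among the 22810 on the array. Each probe set pools several oligonucleotides designed against the same transcript. RNA came from whole seedlings of the accession Col-0, a standard laboratory strain. The arrays covered 3 dark control samples, kept in darkness without heat, and 3 dark heat samples, held at 37 °C for 30 min in darkness. Seeds had been chilled at 4 °C for 72 h, and growth was at 23 °C, the lights being on for 16 h and off for 8 h a day. Age is given in 2 ways. Per the design text the plants were 10 days old, while the sample labels give 16, 17 and 18 days to control replicates 1 to 3 and 19, 20 and 21 days to heat replicates 1 to 3. By these labels the heat samples are all older than the controls, and heat and labelled age cannot be fully told apart. These ages rise by 1 day from each sample to the next and differ from the design text, so whether they are true ages is not known, and each value below with labelled age as a covariate carries that doubt. Such a fit is also less precise, so a call lost in it does not by itself mean a smaller difference. Groups kept in the light belong to the wider design and were not analysed here.

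Secreted and membrane proteins acquire disulfide bonds while they fold in the endoplasmic reticulum (ER). Protein disulfide isomerases (PDIs) carry thioredoxin-type domains whose paired cysteines pass a disulfide to the client or reshuffle a wrong one, and ERO1 uses molecular oxygen to reoxidize the spent isomerase. In plants, genes of this machinery are known targets of the unfolded protein response, the signalling route that raises ER folding capacity when misfolded proteins build up.

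All values are the authors' log2 expression values, on which a step of 1 is a doubling. The heat treatment was visible on every array. HSP17.6A, a cytosolic small heat shock protein, read 2.19, 2.09 and 2.29 on the control arrays and 11.29, 11.33 and 11.20 on the heat arrays. HSP101, HSFA2 and HSP90.1 rose by 8.19, 7.64 and 7.21 on the log2 scale. Control replicate 2 stood somewhat apart. It held the lowest control value for 41.3% of all probe sets and for 8 of the 10 members, and counts of calls without it are given beside the results. Green tissue markers, from Rubisco activase to light-harvesting proteins, overlapped in their summed linear level (12911 to 14777 in controls, 12547 to 13821 after heat), and 0 of 8 passed the limma test (1 was higher at an unadjusted p under 0.05, and 1 rose without control replicate 2). Over all probe sets 6.48% were higher at an unadjusted p under 0.05, and 4.43% rose without control replicate 2. Root markers did not overlap in their summed level (1013 to 1918 in controls, 529 to 762 after heat), a sum carried mostly by PYK10, a root beta-glucosidase of ER-derived bodies.

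Most of the isomerase transcripts read lower after heat, and PDIL1-6 was the member whose difference passed the test. Of the 10 members, 1 fell, 0 rose and 9 did not pass the test (limma, Benjamini-Hochberg adjusted p under 0.05 over 22746 probe sets). In the same fit 4.00% of all probe sets fell and 2.34% rose. The count rested on single arrays: 4 of 10 fell without control replicate 2, where 12.0% of all probe sets did, and 0 fell without any 1 of the other 5 arrays. No member differed by as much as 1 log2 unit, and the 95% intervals of the 10 differences together ran from -1.41 to 0.66. Among the members 9 of 10 had a lower mean after heat, against 51.7% of all probe sets and 67.0% of the brighter 50% of them. The heat values lay below all control values, with no overlap, in 5 members, against 15.8% of all probe sets and 23.7% of the brighter 50%. They lay above all control values in 1 member, against 10.4% of all probe sets and 8.86% of the brighter 50%. The median difference of the 10 members was -0.44, beside -0.01 over all probe sets. For the 8 members in the brighter 50% it was -0.52, beside -0.15 over that part of the array. At an unadjusted p under 0.05, 6 members were lower and 1 was higher, where 14.9% and 6.48% of all probe sets were. In whole seedlings, fewer cells of a type and less RNA per cell cannot be told apart.

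**Figure D1:**
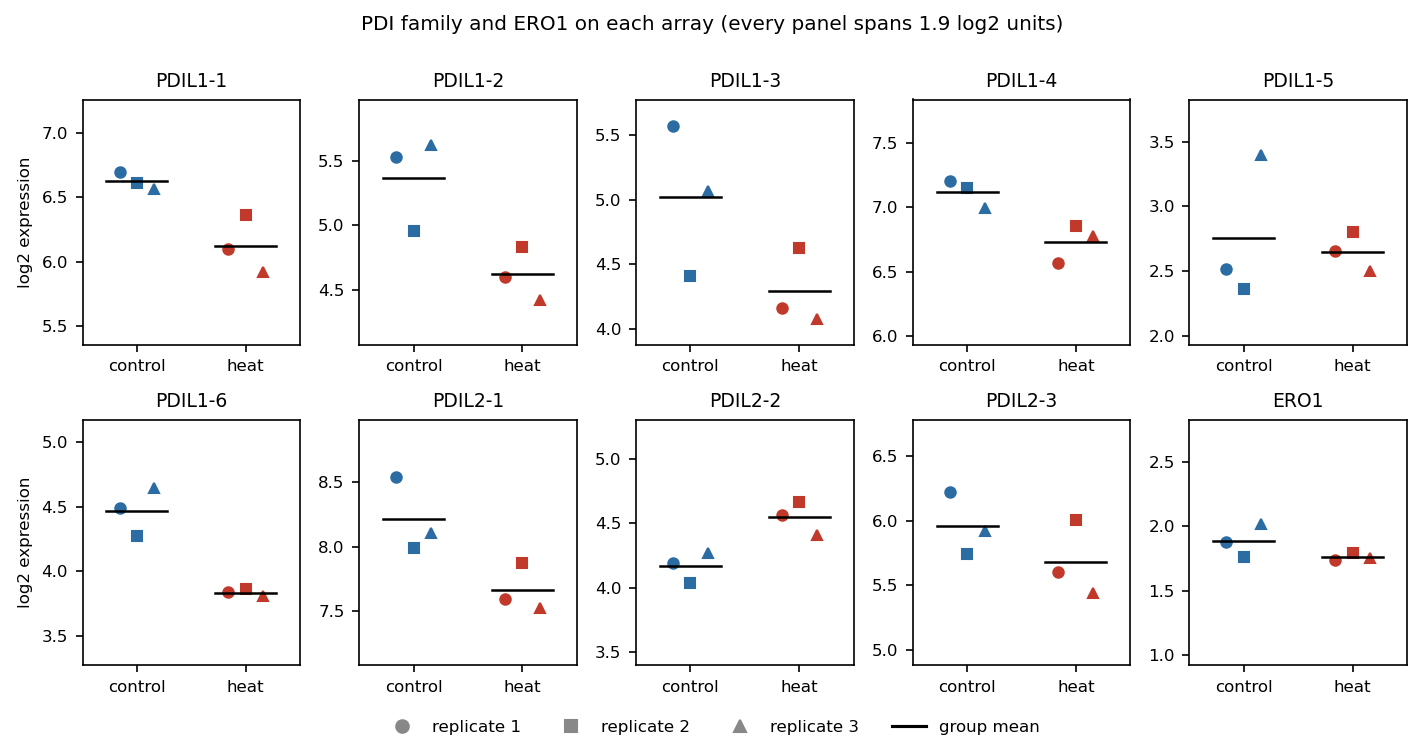
log2 expression of each of the 10 members on the 3 control (blue) and 3 heat (red) arrays, with a marker for each replicate number and a line at each group mean. In 5 members the 3 heat points lie below all 3 control points, in PDIL2-2 they lie above them, and in 4 members the groups overlap.

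PDIL1-6 (AT3G16110) was the member that fell. It belongs with PDIL1-5 to a diverged branch of the PDI family. It read 4.49, 4.27 and 4.64 on the control arrays and 3.84, 3.86 and 3.81 on the heat arrays. The heat arrays were tightly grouped (SD 0.03, n = 3) and all lay below the controls (SD 0.19, n = 3). The difference was -0.63 (SE 0.12, limma adjusted p = 0.0255), which puts the mean heat level at 0.644 of the control level. This call was lost when control replicate 1, control replicate 3 or any 1 of the heat arrays was dropped (differences -0.65 to -0.55, limma adjusted p = 0.0798 to 0.107). The call was also lost with an intensity trend in the variance moderation (adjusted p = 0.0555), with replicate number as a block (adjusted p = 0.0930) and with labelled age as a covariate (-0.73, adjusted p = 0.811). It held without control replicate 2 (-0.73, adjusted p = 0.00651) and under the 3 other array scalings tried. Its relative PDIL1-5 (AT1G52260) read 2.52, 2.36 and 3.40 in controls and 2.66, 2.799 and 2.50 after heat, so that the groups overlapped and control replicate 3 stood above the other 5 arrays. Its difference of -0.11 (95% interval -0.72 to 0.50, limma adjusted p = 0.843) turned sign without control replicate 3 (0.21).

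The classical isomerases PDIL1-1 and PDIL1-2 are close relatives with the catalytic layout of the PDI found in animals and yeast. PDIL1-1 (AT1G21750), which is known to chaperone cysteine proteases in seed tissue, read 6.70, 6.61 and 6.56 in controls and 6.10, 6.36 and 5.92 after heat. The groups did not overlap, but the heat arrays were more spread out than the controls (SD 0.22 and 0.07, n = 3 each), and the difference of -0.50 (SE 0.14) did not pass (limma adjusted p = 0.0821). PDIL1-2 (AT1G77510) read 5.53, 4.96 and 5.63 in controls and 4.60, 4.83 and 4.43 after heat. Here too the groups did not overlap, and control replicate 2 was the lowest control. The difference of -0.75 (SE 0.20) had a limma adjusted p of 0.0725. Without control replicate 2 PDIL1-2 passed as a fall (-0.96, adjusted p = 0.00602), and it also passed after quantile normalization (-0.62, adjusted p = 0.0488) and without the dimmer 50% of probe sets (adjusted p = 0.0490).

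PDIL1-3 and PDIL1-4 form another related branch. PDIL1-3 (AT3G54960) read 5.57, 4.41 and 5.07 in controls and 4.16, 4.63 and 4.08 after heat. Control replicate 2 lay below heat replicate 2, so the groups overlapped, and the controls spread widely (SD 0.58, n = 3). The difference of -0.73 (SE 0.29, limma adjusted p = 0.204) was called a fall in 1 of the alternatives run, the fit that left out control replicate 2 (-1.03, adjusted p = 0.0184). PDIL1-4 (AT5G60640) read 7.20, 7.15 and 6.996 in controls and 6.57, 6.85 and 6.78 after heat. All heat arrays lay below the controls, by a narrow margin for heat replicate 2. The difference of -0.38 (SE 0.12, 95% interval -0.67 to -0.10) did not pass (limma adjusted p = 0.123), nor did it under any alternative run.

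**Figure D2:**
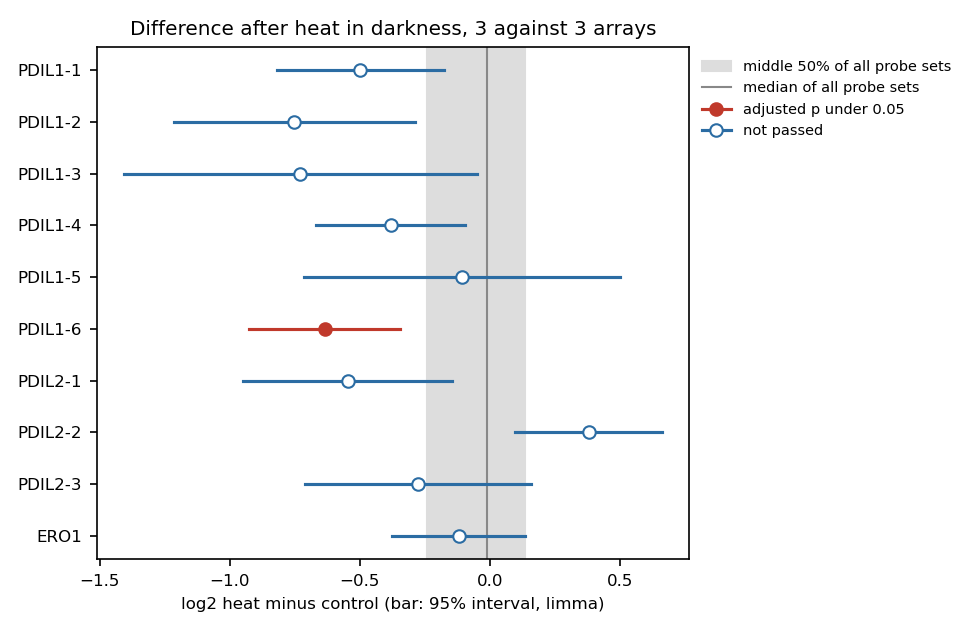
log2 heat minus control of each member with its 95% interval from limma (3 against 3 arrays). PDIL1-6, in red, is the member past an adjusted p of 0.05, at -0.63. The grey band spans the middle 50% of the differences of all probe sets, -0.24 to 0.13, and the line marks their median.

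The PDIL2 members hold their thioredoxin domains in tandem near the start of the protein. PDIL2-1 (AT2G47470), also known as UNE5 for the unfertilized embryo sacs of its mutant, read 8.54, 7.99 and 8.11 in controls and 7.60, 7.87 and 7.53 after heat. The lowest control and the highest heat array were close, without overlap. The difference of -0.55 (SE 0.17, limma adjusted p = 0.118) was called a fall in 1 alternative, the fit that left out control replicate 2 (-0.66, adjusted p = 0.0404). PDIL2-3 (AT2G32920), which is known to be needed for pollen development in the heat, read 6.23, 5.74 and 5.92 in controls and 5.61, 6.01 and 5.44 after heat. Heat replicate 2 lay among the controls, and the difference of -0.28 (95% interval -0.71 to 0.16, limma adjusted p = 0.442) turned sign with labelled age as a covariate (0.08).

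PDIL2-2 (AT1G04980), the close relative of PDIL2-3, was the 1 member with a higher mean after heat. It read 4.19, 4.04 and 4.27 in controls and 4.57, 4.66 and 4.41 after heat. The 3 heat arrays lay above the 3 controls. The difference of 0.38 (SE 0.12, 95% interval 0.10 to 0.66) did not pass as deposited (limma adjusted p = 0.121). It passed as a rise after quantile normalization (0.53, adjusted p = 0.0210) and after cyclic loess normalization (0.55, adjusted p = 0.0201), but not when only the array medians were aligned. Its sign was positive under each of the 15 alternatives.

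ERO1 (AT1G72280), the oxidase, was dim. It read 1.88, 1.76 and 2.01 in controls and 1.74, 1.79 and 1.76 after heat, and its control mean lay at the 27.2th percentile of all probe sets, where a value cannot be told from background without a detection call. The groups overlapped, and the difference was -0.12 (95% interval -0.38 to 0.14, limma adjusted p = 0.573). ERO2, the second oxidase of this kind in Arabidopsis, read 3.63, 3.57 and 3.34 in controls and 3.44, 3.50 and 3.34 after heat. Those values overlapped as well (-0.08, 95% interval -0.36 to 0.20, adjusted p = 0.733), and the sign turned under the 3 other scalings and with labelled age as a covariate.

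Whether relatives responded unequally was asked within each array, from the log2 difference between the 2 probe sets of a pair. With 3 against 3 arrays the exact two-sided permutation test cannot go below 0.1, so the shifts of the 5 pairs are given as descriptions. For PDIL2-2 minus PDIL2-3 the values were -2.04, -1.70 and -1.65 in controls and -1.04, -1.34 and -1.03 after heat. They did not overlap, and the shift was 0.66 (SD 0.21 in controls and 0.18 after heat, n = 3 each). PDIL1-6 minus PDIL1-5 shifted by -0.53 with overlapping groups (SD 0.40 and 0.12). The values of PDIL1-1 minus PDIL1-2 (shift 0.25), PDIL1-3 minus PDIL1-4 (-0.35) and ERO1 minus ERO2 (-0.04) overlapped too.

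The members varied together among the heat arrays. All 10 were highest on heat replicate 2, where 33.7% of all probe sets were, and 8 were lowest on heat replicate 3, where 33.8% were. The pattern was noticed after the values were seen. PDIL1-3 lay 0.51 above the mean of the other 2 heat arrays on heat replicate 2, PDIL2-3 lay 0.48 above it and PDIL1-1 0.35, whereas PDIL1-6 lay 0.04 and ERO1 0.05 above it. Among the ER chaperones listed below, 10 of 13 were also highest on heat replicate 2, and of the other oxidative folding genes 4 of 7 were. The remaining lists had 3 of 12 (unfolded protein response), 3 of 6 (ER-associated degradation) and 4 of 10 (cytosolic thioredoxins and reductases) highest there. Of the root markers 1 of 8 was, and of the green tissue markers 0 of 8. Heat replicate 2 had the lowest median of the heat arrays (2.78, against 2.79 and 2.81). After quantile or cyclic loess normalization 9 of the 10 members were highest on heat replicate 2, where 34.1% and 34.6% of all probe sets were. Leaving that array out took the median difference of the members from -0.44 to -0.53, and left 0 of 10 past the threshold in either direction in the limma fit (7 lower and 0 higher at an unadjusted p under 0.05). Over all probe sets 1.35% then fell and 1.63% rose at an adjusted p under 0.05. Their share at an unadjusted p was not counted for this fit, so the unadjusted counts of the members have no share beside them.

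**Figure D3:**
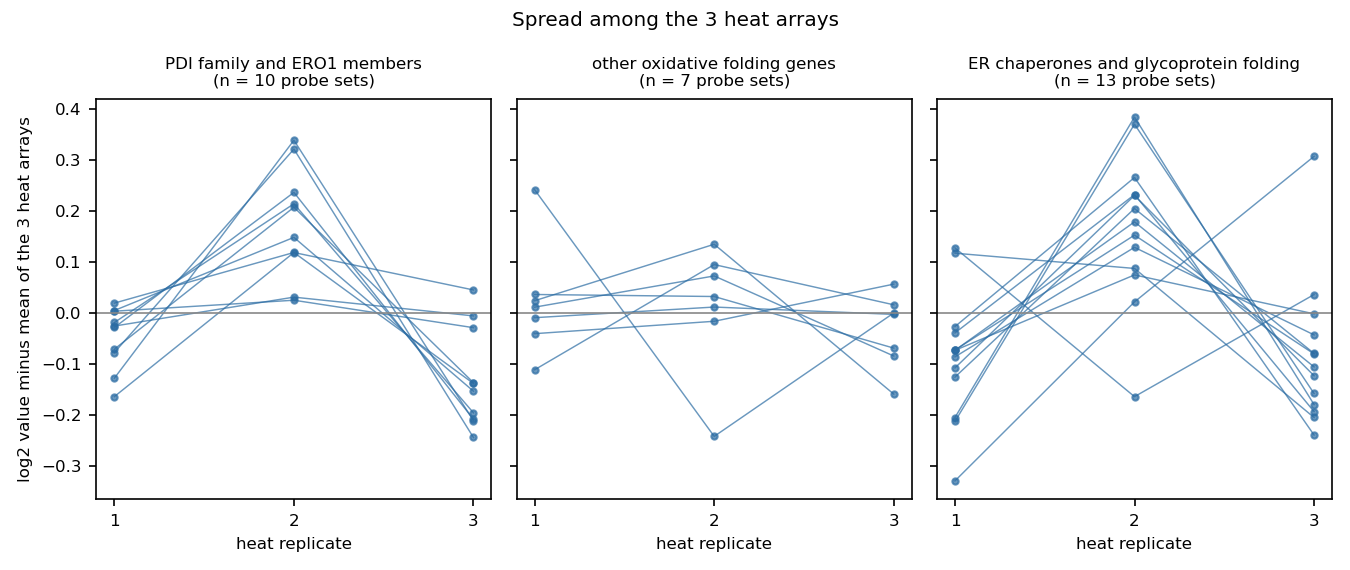
log2 value on each heat array minus the mean of the 3 heat arrays, with the points of a probe set joined by a line to show which belong together. All 10 members and 10 of 13 ER chaperone probe sets peak on heat replicate 2. Of the other 7 oxidative folding genes 4 peak there, ERO2 and PDIL5-1 among them, and a difference from the members was not tested.

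By the distance between mean-centred values over the 6 arrays, the genes most like PDIL1-6 were EMB3119 (root mean square distance 0.03 log2 units), RAV2 (0.03) and AT1G71020 (0.05). EMB3119 read 9.56, 9.38 and 9.73 in controls and 8.95, 9.02 and 8.88 after heat. The 3 differences were -0.61, -0.64 and -0.59. The genes were picked for array values like those of PDIL1-6. Differences close to its own thus follow from the choice and are no separate result.

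Among the other genes of disulfide bond formation PDIL5-3 fell, PDIL5-2 read lower by a larger difference that missed the threshold, and the rest differed by less. Of 7, 1 fell and 0 rose, where 4.00% and 2.34% of all probe sets did, and the median difference was -0.08. At an unadjusted p under 0.05, 2 were lower and 0 higher, where 14.9% and 6.48% of all probe sets were. PDIL5-3, a PDI-like protein with a membrane anchor, fell by 0.66 (SE 0.14, limma adjusted p = 0.0300), from 3.65, 3.24 and 3.30 in controls to 2.69, 2.72 and 2.79 after heat. That call ended without any 1 array other than control replicate 2 (limma adjusted p = 0.0677 to 0.115). It also ended with labelled age as a covariate, with replicate number as a block, with array medians aligned and after cyclic loess normalization. PDIL5-2, an ER membrane isomerase, read 6.63, 5.74 and 6.496 in controls and 5.40, 5.40 and 5.30 after heat. It just missed the threshold (-0.93, SE 0.22, adjusted p = 0.0543) and passed as a fall under 6 alternatives, among them without control replicate 2 (-1.20, adjusted p = 0.000839). PDIL5-1 differed by -0.34 and PDIL5-4 by -0.05, and the sulfhydryl oxidases QSOX1 and QSOX2, which make disulfides from oxygen in a single protein, by 0.18 and 0.03 (adjusted p = 0.432 to 0.942). PDIL5-1 passed as a fall without control replicate 2 (-0.60, limma adjusted p = 0.0213), and 3 of the 7 fell then, where 12.0% of all probe sets did.

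Several genes that work beside the isomerases did rise, while most probe sets of their lists did not pass. Of 13 probe sets for ER chaperones and glycoprotein folding, 2 rose and 1 fell, with a median of 0.10. In the same fit 2.34% of all probe sets rose and 4.00% fell, and these shares also stand beside the lists that follow. The probe set shared by BIP1 and BIP2, the main HSP70 chaperones of the ER, read 8.35, 7.74 and 7.97 in controls and 8.90, 9.23 and 8.94 after heat, a rise of 1.004 (SE 0.18, limma adjusted p = 0.0169). The rise of BIP1 and BIP2 ended without control replicate 3 or any 1 of the heat arrays (0.90 to 1.07, adjusted p up to 0.0776). It also ended with replicate number as a block (limma adjusted p = 0.0734) and with labelled age as a covariate. ERDJ3A, a J-domain partner of BiP, rose by 6.59 (SE 0.12). Its control mean was dim (1.93, percentile 28.8 of all probe sets), so the size of the rise rests on a value that may be background. CRT1A, a calreticulin that binds glycoproteins together with ER isomerases in animals, fell by 0.81 (SE 0.15, limma adjusted p = 0.0196). This fall no longer passed when control replicate 1, control replicate 3, heat replicate 1 or heat replicate 3 was dropped (largest adjusted p 0.0829). Nor did it pass with replicate number as a block or when age entered the model. Among 12 regulators and reporters of the unfolded protein response 5 rose and 0 fell (median -0.02), led by TIN1, a tunicamycin-induced gene (6.28, SE 0.15), and the cell death suppressor BI1 (2.23, SE 0.19, ended with labelled age as a covariate). TIN1 had a dim control mean as well (1.53, percentile 10.3), with the same limit on the size of its rise. With 1 array left out the count of rises was 3 for control replicate 3 and for each heat array, where 1.63% to 1.98% of all probe sets rose. A fall of 1 gene appeared without control replicate 2, where 12.0% of all probe sets fell. Of 6 genes of ER-associated degradation, which draws misfolded proteins out for disposal, the derlin DER1 rose by 3.41 (SE 0.14) from the brighter of its 2 probe sets. The other read 1.05 to 1.69 on all arrays and did not pass (0.31, adjusted p = 0.227). The degradation list had 1 rise and 0 falls (median 0.16), with 2 rises without control replicate 2 or 3 and 1 fall without control replicate 2. Over all probe sets 4.43% and 1.98% rose without these arrays, and 12.0% fell without control replicate 2. Differences between these lists and the isomerases were described and not tested.

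**Figure D4:**
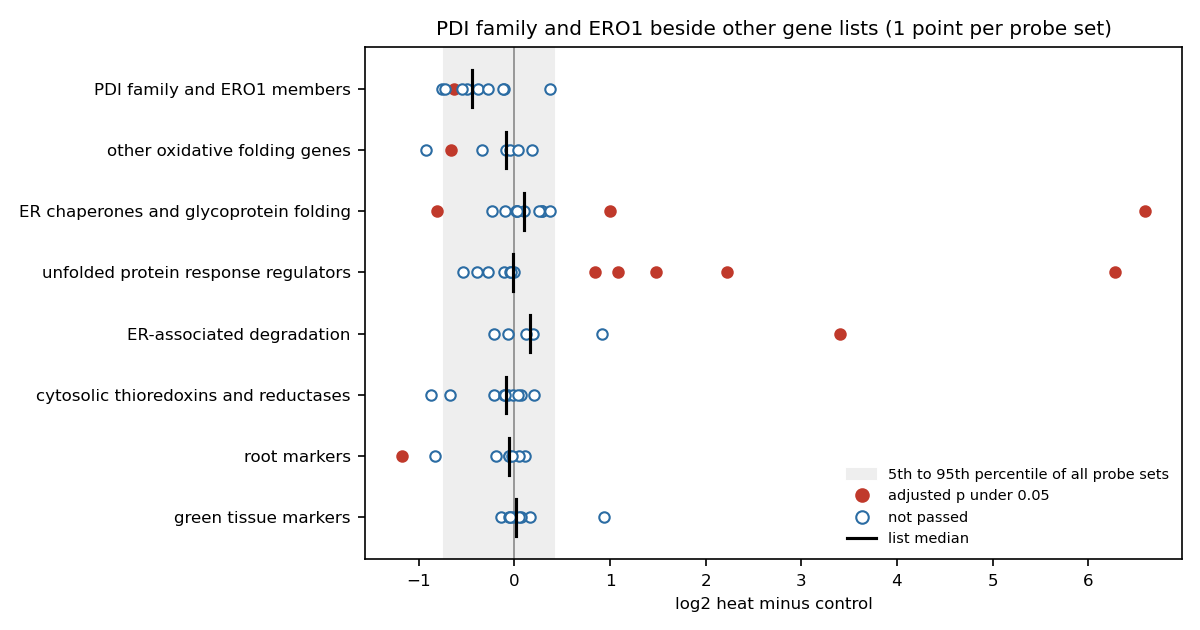
log2 heat minus control of each probe set in 8 gene lists, with a bar at each list median and filled red points for an adjusted p under 0.05. The PDI family and ERO1 lie between -0.75 and 0.38, with a median of -0.44, while single members of the other ER lists reach 6.59, 6.28 and 3.41. The points at 6.59 (ERDJ3A) and 6.28 (TIN1) start from dim control values.

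Cytosolic thioredoxins, which share the thioredoxin fold but keep cysteines reduced, were listed together with thioredoxin reductases. This list gave 0 rises and 0 falls among 10 probe sets in the limma fit (0 and 0 also at an unadjusted p under 0.05, median -0.08). It gave 1 fall without control replicate 1 or 2, where 2.17% and 12.0% of all probe sets fell. Of 8 root markers 1 fell and 0 rose, where 4.00% and 2.34% of all probe sets did (median of the markers -0.06). That gene was PYK10, from 10.74, 9.86 and 10.35 in controls to 8.86, 9.38 and 9.20 after heat (-1.17, SE 0.24, limma adjusted p = 0.0287). Its call ended without any 1 array other than control replicate 2 (limma adjusted p = 0.0653 to 0.111). The call also ended after cyclic loess normalization, with replicate number as a block and with labelled age as a covariate. The 3 root markers in the brighter 50% of probe sets, PYK10, PHT1;1 and TIP2;3, all had lower means after heat, with a median difference of -0.83. Of all probe sets in that brighter part, 67.0% had lower means, with a median difference of -0.15. The aquaporin TIP2;3 was at -0.06 (SE 0.47). PHT1;1, a phosphate transporter read by a shared probe set, was 7.19, 5.62 and 5.83 in controls and 4.80, 5.62 and 5.74 after heat, with overlapping groups (-0.83, limma adjusted p = 0.316). The root hair genes COBL9, LRX1, EXPA7 and PRP3 read 1.47 to 3.10 on all arrays, so the median over all 8 rests largely on dim probe sets. Of the 8, 6 had lower means after heat, where 51.7% of all probe sets did, while NRT2.1 (0.11) and COBL9 (0.05) had higher ones that did not pass. NRT2.1, PHT1;1, TIP2;3 and the root hair genes were named after their values were seen. The part of root tissue in the member values was not tested.

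**Figure D5:**
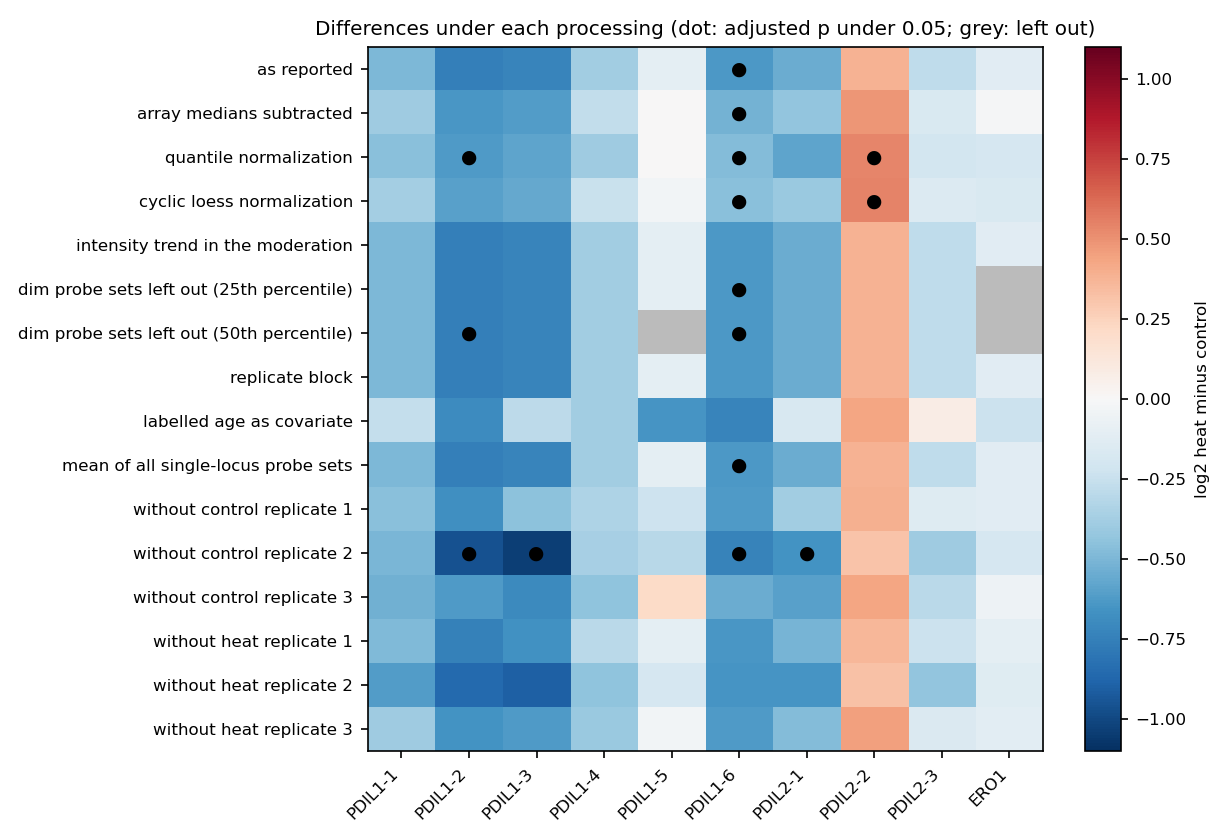
log2 heat minus control of each member (columns) under the fit as reported and each of 15 alternatives (rows), blue for lower and red for higher after heat, with a dot where the adjusted p was under 0.05. Without control replicate 2 the dots cover PDIL1-2, PDIL1-3, PDIL1-6 and PDIL2-1. PDIL2-2 is red in every row.

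Of the 6 arrays, control replicate 2 was the one whose removal raised the count of calls among the members. Without it 4 of 10 members fell and 0 rose, and over all probe sets the share that fell went from 4.00% to 12.0% and the share that rose from 2.34% to 4.43%. The members' median difference then stayed at -0.45. Without control replicate 1 or 3, or without any 1 heat array, 0 of 10 members fell and 0 rose in the limma fit. Over all probe sets 1.21% to 2.17% fell in these fits, by the same adjusted p. At an unadjusted p under 0.05, 4 to 7 members were lower and 0 to 1 higher. The share of all probe sets at an unadjusted p was counted only for the fit with all arrays (14.9% lower and 6.48% higher).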

How the data were processed

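Total RNA of 6 seedling samples was hybridized to Affymetrix expression arrays. The deposited values are on a log2 scale, and the authors made them with RMA, per the submitters' processing notes. The sources used here give no software, version, background step, annotation build or detection calls. The authors' second table, which gave the gene identifiers, held the same log2 values for the 3 heat arrays on which it was compared (largest gap 0). Of 22810 probe sets, 64 controls were left out. Identifiers were matched to the TAIR10.1 gene table: 20653 probe sets pointed to 1 gene (20482 matched), 959 to several and 1134 to none. The brightest probe set of a locus alone was used, and a shared one where there was no other. The arrays carry no read depth, and their number limits the precision.

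Heat and control were compared with limma 3.58.1 in R 4.3.3 (lmFit, eBayes, group as the only term, two-sided, Benjamini-Hochberg over 22746 probe sets, threshold 0.05), and the fit was tested on simulated data. SE and 95% intervals are limma's moderated ones, the intervals without adjustment. All adjusted p-values of single genes are from limma. Nothing in the labels says that replicates were grown separately, and if they were not, the spread behind the p-values is technical. The members, the lists and the tests were chosen with earlier results of these data known. Named genes are all members and other oxidative folding genes, up to 2 rises and 2 falls past the threshold per list, 4 heat genes and the 3 genes nearest in pattern to the called member with the largest difference. BZIP28, BZIP17, BZIP60, IRE1A, IRE1B, NAC062, NAC103, NRT2.1, PHT1;1, TIP2;3 and 4 root hair genes were named outside this rule, after their values were seen. Alternatives covered 3 array scalings, a variance trend, 2 filters on dim probe sets (25th and 50th percentile), the replicate block, labelled age, the mean over all probe sets of a locus and each array left out. Same-numbered arrays did not deviate together (correlations of deviations from the group means -0.26, -0.24 and -0.24 for numbers 1 to 3).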

Additional observations from a re-analysis of the deposited data

How the results depend on the processing

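The count of members that fell was 1 as reported. It was 2 after quantile normalization and without the dimmer 50% of probe sets, and 0 with an intensity trend, the replicate block or labelled age. Over all probe sets 4.00% fell as reported, 3.83% after quantile normalization and 8.67% without the dimmer 50%, which left 8 members. The shares were 4.32% with an intensity trend, 1.8% with the replicate block and 0.044% with labelled age. The members' count ranged from 0 to 4 with 1 array left out, where 1.21% to 12.0% of all probe sets fell. The count of members that rose was 0 as reported and 1 after quantile or cyclic loess normalization. Over all probe sets 2.34%, 2.98% and 3.13% rose in these fits. Over all probe sets 533 rose and 909 fell as reported, 129 and 10 with labelled age. The SEs of the members ran from 0.11 to 0.29 as reported and from 0.25 to 0.63 with labelled age. Their median difference was -0.44 and -0.27 in these 2 fits. With 1 array left out the range was 371 to 1008 for rises and 275 to 2719 for falls. The cause of these shifts was not tested. Subtracting array medians moved the median of all differences from -0.01 to 0.10, and the members' median was then -0.33. Under the replicate block 396 rose and 410 fell. The numbers share no pairing in the labels, and each array's deviations correlated best with an array of another number.

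Signs turned only for differences that passed in neither fit. PDIL1-5 was 0.00273 with array medians subtracted, 0.00604 after quantile normalization and -0.31 to 0.21 with 1 array left out. PDIL2-3 was 0.079 with labelled age. ERO2 was 0.028 with array medians subtracted, 0.067 after quantile normalization, 0.075 after cyclic loess and 0.21 with labelled age. PDIL5-4 was 0.065, 0.10 and 0.12 under those 3 scalings and -0.10 to 0.0101 with 1 array left out. QSOX1 was -0.31 with labelled age, and QSOX2 was -0.19 to 0.16 with 1 array left out, negative without control replicate 2 or heat replicate 1. The lack of detection calls limits ERO1 most, which the filters on dim probe sets removed; the 50th percentile filter also removed PDIL1-5. Each member had 1 probe set, so averaging probe sets left the members' differences as they were.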

Other observations

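Of the BZIP factors in the list of unfolded protein response genes, BZIP28 and BZIP17 rose. BZIP60 and the ER stress sensors IRE1A and IRE1B had lower means and did not pass. The NAC factors of that list were NAC062, just under the threshold as a rise (1.08, SE 0.25, limma adjusted p = 0.0494), and NAC103 (-0.03, limma adjusted p = 0.916). The rise of NAC062 ended with labelled age as a covariate, where 1 of the 12 in the list and 0.567% of all probe sets rose. The list held 3 rises, not 5, without control replicate 3, without any 1 heat array and with the replicate block. Over all probe sets 1.63% to 1.98% rose in those fits. BZIP28, a membrane-bound transcription factor released under ER stress and heat, read 4.87, 4.02 and 4.58 in controls and 6.06, 6.003 and 5.86 after heat. Its rise of 1.48 (SE 0.21, limma adjusted p = 0.00667) held with each array left out (1.24 to 1.67, adjusted p up to 0.0417) and ended with labelled age as a covariate (1.85, adjusted p = 0.321). Its relative BZIP17 rose by 0.84 (SE 0.17, limma adjusted p = 0.0261). This rise was lost when control replicate 3 or any 1 heat array was dropped (largest adjusted p 0.0936). It was also lost with replicate number as a block (limma adjusted p = 0.105) and when age entered the model. BZIP60, the factor whose mRNA IRE1 splices, read 5.70, 5.18 and 5.91 in controls and 5.003, 5.22 and 4.98 after heat (-0.53, SE 0.19, limma adjusted p = 0.164). The sensor kinases IRE1A and IRE1B differed by -0.27 and -0.11 (limma adjusted p = 0.501 and 0.682). All genes of this paragraph were named after their values were seen, and differences among them were not tested. A difference between the response of these factors and that of the isomerases was not tested.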
